A study of Mus musculus with 2 samples.

Results

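The genes described here encode 10 components of bone morphogenetic protein (BMP) signalling and its ID targets, chosen by symbol from the deposited gene counts. They are the ligands Bmp2 and Bmp4, the protease Bmp1, the receptors Bmpr1a and Bmpr2, the secreted antagonists Grem1 and Nog, and the target genes Id1, Id2 and Id3. All 10 symbols were found, each on 1 of the 51912 gene rows. The data were 2 RNA-seq libraries of mouse embryonic fibroblasts (MEFs), which are connective tissue cells grown out of embryos, on a C57BL/6 background. UKS was the line with Usp16 deleted (Usp16-/-, from floxed alleles) and KS the line with wild-type Usp16 (Usp16+/+). SV40 T antigen, which disables p53 and RB proteins, had been used to immortalize both lines, and both were infected with adenovirus carrying Cre recombinase. Each line gave 1 library, so no difference between them has a replicate check and no p-value is given. Whether a line was 1 clone or a pool is not stated in the labels.

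BMPs are secreted dimers that bring together type I and type II receptor kinases at the cell surface. The type II receptor phosphorylates the type I receptor, which phosphorylates SMAD1, SMAD5 and SMAD9. These join SMAD4 and enter the nucleus, where Id1, Id2 and Id3 are among their best known direct target genes. The ID proteins are helix-loop-helix factors without a DNA-binding region, and they hold E proteins such as TCF3 and TCF4 away from DNA. In cells of the mesenchyme BMP signalling is known for directing bone and cartilage formation, and antagonists such as gremlin and noggin bind BMPs outside the cell and keep them from their receptors.

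Windows before the start of the members were taken from RefSeq (GRCm38.p6), which gave one for 6 of the 10 (Bmp4, Bmpr1a, Bmpr2, Grem1, Id2 and Id3). GGCGCC is the GC-rich palindrome bound by SMAD1 and SMAD5. The windows are shown because it occurred both in members with a ratio above 0 as counted and in members with one below 0. The latter, Bmpr1a and Bmpr2, came to 0.04 and −0.12 with the trend described below removed. Of the 6 windows 4 (Id2, Id3, Bmpr1a and Bmpr2) lie inside the gene as GENCODE M21 bounds it, downstream of its outermost start, so only those of Grem1 and Bmp4 precede the whole annotated gene. Each line gives the part of the 250 bases before the RefSeq start that lies outside GENCODE exons, 5′ to 3′ on the gene's own strand, and capitals mark GGCGCC. The Id2 stretch is chr12:25096254-25096342 (minus strand), the Grem1 stretch chr2:113758649-113758898 (minus strand), the Bmpr1a stretch chr14:34502688-34502796 (minus strand) and the Bmp4 stretch chr14:46390670-46390919 (minus strand).
Id2: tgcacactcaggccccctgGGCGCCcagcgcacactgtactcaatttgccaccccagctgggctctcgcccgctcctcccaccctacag
Grem1: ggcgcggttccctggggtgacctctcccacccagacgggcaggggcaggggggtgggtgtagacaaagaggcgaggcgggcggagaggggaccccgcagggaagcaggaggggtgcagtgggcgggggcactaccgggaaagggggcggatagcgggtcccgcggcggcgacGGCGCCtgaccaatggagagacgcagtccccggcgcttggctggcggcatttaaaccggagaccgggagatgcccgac
Bmpr1a: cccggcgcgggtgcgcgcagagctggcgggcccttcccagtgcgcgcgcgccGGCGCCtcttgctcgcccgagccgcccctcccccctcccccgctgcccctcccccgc
Bmp4: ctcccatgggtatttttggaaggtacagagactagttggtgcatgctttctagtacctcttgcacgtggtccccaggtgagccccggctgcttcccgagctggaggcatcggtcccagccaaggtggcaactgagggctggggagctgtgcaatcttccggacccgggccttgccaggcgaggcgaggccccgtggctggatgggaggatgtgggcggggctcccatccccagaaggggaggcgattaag

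GGCGCC was present 1 time in each of the full 250-base windows of Id2, Grem1, Bmpr1a and Bmpr2, and it did not occur in those of Id3 and Bmp4. The windows of Bmpr2 and Id3 are wholly exonic, and those of Id2 and Bmpr1a hold 161 and 141 exonic bases. It was found, on either strand, in 9.59% of all 32851 promoter windows of this length. The SMAD box GTCT, searched on both strands and unable to overlap GGCGCC, occurred 4 times in the window of Grem1, 2 times in that of Id3, 1 time in that of Id2 and 1 time in that of Bmp4, and 82.9% of all windows held it. It did not occur in the windows of Bmpr1a and Bmpr2. The 6 windows had a GC content between 62.8% (Id2 and Id3) and 78.8% (Bmpr1a), against a median of 52.4% over all windows. A match describes these letters and is not a bound site.

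The libraries held 23205734 counts in UKS and 26561600 in KS, so that 1 count equalled 0.0428 and 0.0379 CPM (CPM scale counts to a common library total, here after the TMM method, which assumes that most genes do not differ). Differences are given as log2((UKS + 1)/(KS + 1)) of CPM, a scale that understates differences of low genes, and folds are ratios of CPM. A gene was taken as measured at a mean of at least 1 CPM. It was counted as higher or lower when the libraries lay at least 2-fold apart on that log2 scale, which is a size and not a test. Brackets hold exact 95% intervals, which cover counting error only. Usp16, the deleted gene, had 459 counts (19.7 CPM) in UKS and 1195 counts (45.3 CPM) in KS. Its log2 ratio was −1.16 as counted and −0.88, within 2-fold, with the trend described below removed, and counts per gene do not show from which exons the remaining reads came. The libraries also differed in sex-linked transcripts, with 6998 Xist counts in UKS and 1 in KS, and with 9 counts in UKS and 5009 in KS summed over the Y-linked Ddx3y, Kdm5d, Eif2s3y and Uty. These genes were named with their values known. The part that this difference between the lines has in the results below was not tested, and it cannot be told apart from the deletion. In bulk RNA, fewer cells that express a gene and less RNA per cell cannot be told apart.

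As counted, transcripts of the ID genes and of Bmp2 were several-fold higher in the UKS library, while those of both receptors and of Bmp4 were lower. The receptor differences did not remain with the trend described below removed, at −0.12 for Bmpr2 and 0.04 for Bmpr1a. Bmp4 was low, with 19 counts in UKS and 72 in KS. Of the 10 members 9 were measured. Counted as higher in UKS were 4 of them (Id1, Id3, Id2 and Bmp2), beside 5.81% of the 13015 measured genes. Counted as lower were 2 (Bmpr2 and Bmp4), beside 10.7% of the measured genes. The other 3 (Bmp1, Grem1 and Bmpr1a) lay within 2-fold, and Nog was near undetected in both libraries. The median log2 ratio was 0.60 over the 9 members and 0.03 over all measured genes.

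**Figure D1:**
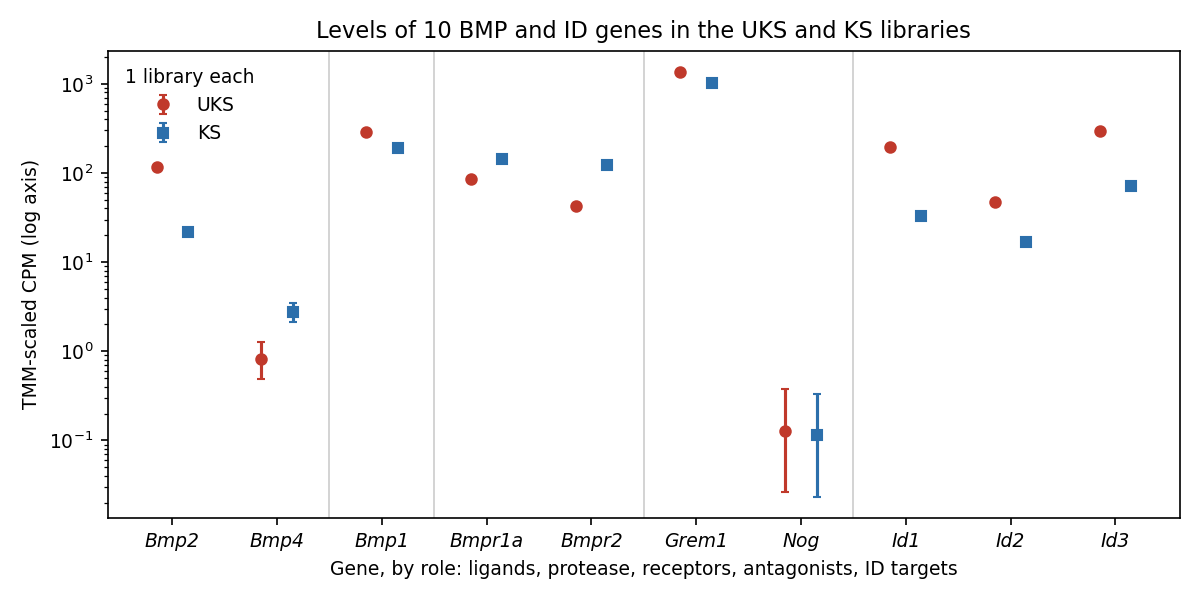
TMM-scaled CPM (log axis) of the 10 members in the UKS library (red circles) and the KS library (blue squares), 1 library each, with exact Poisson 95% intervals for counting error. The 3 ID genes and Bmp2 stand higher in UKS, Bmp4, Bmpr1a and Bmpr2 stand lower, and Nog has 3 counts in each library.

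Ratios of all genes ran with the length and GC content of their transcripts, and this bears on the members unequally. Of 10 equal groups of genes ordered by GC content, the most AT-rich (median GC 39.8%) had a median log2 ratio of −0.81 and the most GC-rich (59.9%) one of 0.40. Ordered by length, the group of longest transcripts (median 8219 nt) had −0.65 and the group of shortest (956 nt) 0.38. Bmpr2 and Bmpr1a are long and AT-rich (12899 and 5956 nt, 41.0% and 41.3% GC), whereas Id1 and Id3 are short and GC-rich (1160 and 1278 nt, 54.7% and 55.6% GC). The log2 ratios of single genes are therefore given both as counted and with the trend removed by a regression on both properties, whereas folds, sums, shares and levels are as counted. With it removed 5.5% of 12997 genes counted as higher in UKS and 4.98% as lower. The higher members were the same 4, Bmp4 was the 1 lower member, and the median over the 9 was 0.74 against 0.01 over all genes.

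**Figure D2:**
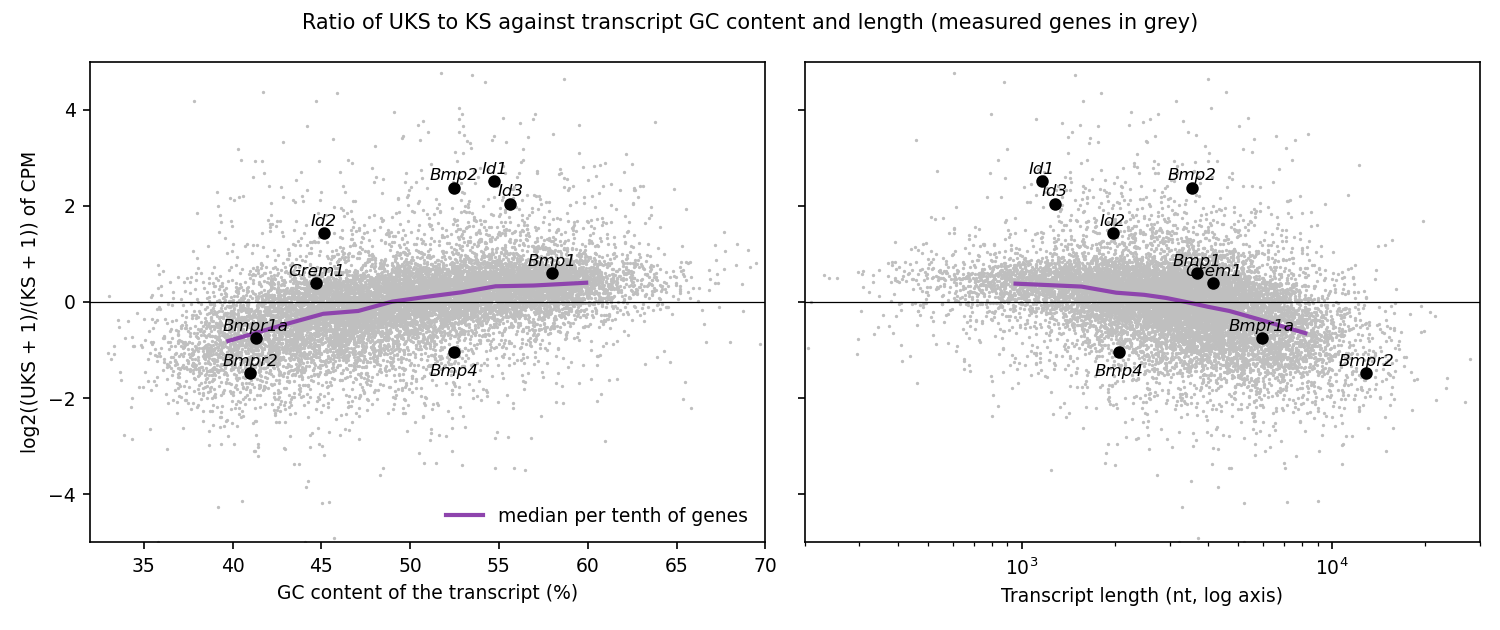
log2((UKS + 1)/(KS + 1)) of CPM against transcript GC content (left, %) and transcript length (right, nt, log axis) for measured genes (grey), with the median of genes grouped by GC content or length (purple line, 10 groups) and the 9 measured members (black). Id1, Id2, Id3 and Bmp2 lie above the line in both panels and Bmpr2 and Bmp4 below it, each line taking a single property and not both together; 12 genes fall outside the plotted range of ratios.

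Id1, Id2 and Id3 were higher in UKS by different amounts. Id1 (ENSMUSG00000042745; GRCm38 chromosome 2, 152736251 to 152737410, plus strand), which restrains differentiation in many cell types, had 4516 counts (193 CPM) in UKS and 875 counts (33.1 CPM) in KS. This was 5.84-fold higher [5.43 to 6.28], a log2 ratio of 2.51 as counted and 2.03 without the trend. Of all measured genes 0.784%, Id1 included, had a ratio at least as high as that of Id1. Id3 (ENSMUSG00000007872; chromosome 4, 136143497 to 136145755, plus strand), a regulator of lymphocyte and vascular development among other roles, had 6936 counts (297 CPM) in UKS and 1882 counts (71.3 CPM) in KS. It was 4.17-fold higher [3.96 to 4.39], with a log2 ratio of 2.04 as counted and 1.55 with the trend removed. Id2 (ENSMUSG00000020644; chromosome 12, 25093799 to 25097140, minus strand), which also acts in immune cell and mammary development, had 1107 counts (47.4 CPM) in UKS and 445 counts (16.9 CPM) in KS. It was 2.81-fold higher [2.52 to 3.15], with a log2 ratio of 1.44 as counted and 1.53 with the trend removed. The intervals of the 3 folds did not overlap, so the order Id1, Id3, Id2 was larger than counting error. With the trend removed Id1 stayed ahead, while Id3 and Id2 differed by 0.02 on the log2 scale.

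As counted, the ID family was higher as a whole in UKS, and Id1 made up more of it. Summed over Id1, Id2, Id3 and Id4, the ID genes had 12595 counts in UKS and 3230 in KS, 4.41-fold higher [4.24 to 4.58]. Id1 took 35.9% of these counts in UKS [35.02 to 36.70] and 27.1% in KS [25.6 to 28.7]. Id2 took 8.79% in UKS [8.30 to 9.30] and 13.8% in KS [12.61 to 15.01]. Id3 was the most abundant ID transcript in both libraries, with 55.1% of the counts in UKS [54.2 to 55.9] and 58.3% in KS [56.54 to 59.97]. Such shares lie within a library and do not rest on scaling between libraries. Id4, the fourth family member, was low in both, with 36 counts in UKS and 28 in KS, and its fold of 1.45 [0.863 to 2.47] included equal levels, with a log2 ratio of 0.30 as counted and 0.78 with the trend removed. Per transcript length (TPM, which scale counts per transcript length to a common library sum, computed here from the longest coding transcript), Id3 stood at 520 TPM, Id1 at 373 TPM and Id2 at 53.9 TPM in UKS. The same levels in KS were 138 TPM for Id3, 70.7 TPM for Id1 and 21.2 TPM for Id2.

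**Figure D3:**
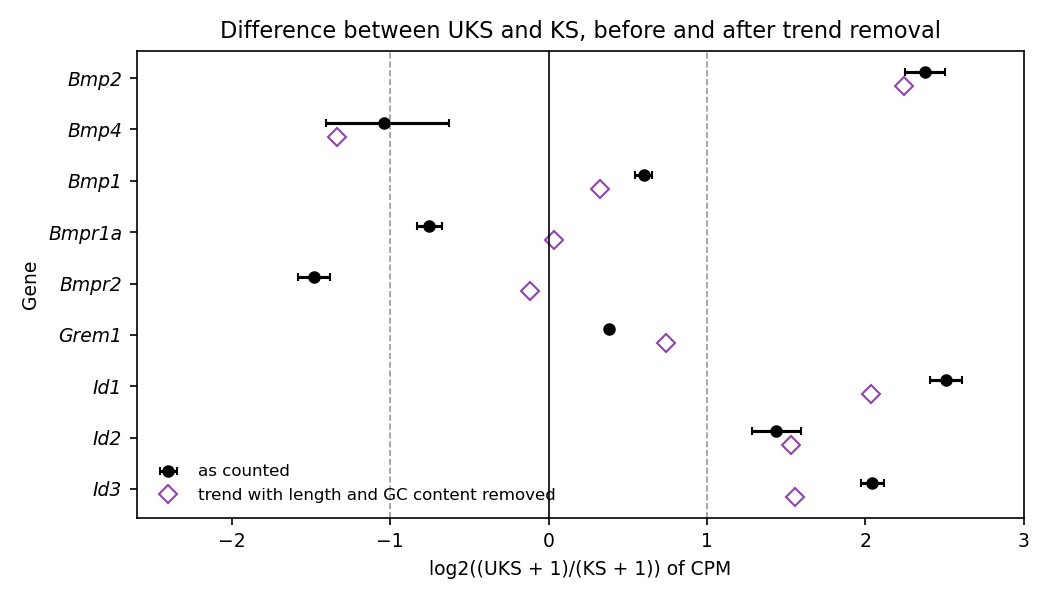
log2((UKS + 1)/(KS + 1)) of CPM for the 9 measured members as counted (black circles, with exact 95% intervals for counting error) and with the trend with length and GC content removed (open diamonds). Dashed lines mark 2-fold; the ID genes and Bmp2 stay beyond the upper line, while Bmpr2 and Bmpr1a come to −0.12 and 0.04.

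Bmp2 and Bmp4, close relatives that both signal through BMPR1A and BMPR2, went in opposite directions. Bmp2 (ENSMUSG00000027358; chromosome 2, 133552159 to 133562885, plus strand), a strong inducer of bone formation, had 2717 counts (116 CPM) in UKS and 570 counts (21.6 CPM) in KS. It was 5.39-fold higher [4.92 to 5.91], with a log2 ratio of 2.38 as counted and 2.24 with the trend removed. Bmp4 (ENSMUSG00000021835; chromosome 14, 46383520 to 46390669, minus strand), which acts in mesoderm formation and many organs, had 19 counts (0.814 CPM) in UKS and 72 counts (2.73 CPM) in KS. It was 3.35-fold lower [1.999 to 5.886]. Its log2 ratio of −1.04 was just past 2-fold, and it was −1.34 with the trend removed and −0.41 with a pseudocount of 5 CPM. Bmp4 shares 89 exonic bases with Gm15217 on the other strand, which had no counts in either library.

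Bmp2 was the main BMP transcript in both lines. Among 13 ligand genes (Bmp2, Bmp4 and 11 further BMP and GDF genes with a count in either library), Bmp2 took 93.5% of the counts in UKS [92.5 to 94.3] and 73.7% in KS [70.5 to 76.8]. The share of Bmp4 was 0.654% in UKS [0.394 to 1.02] and 9.31% in KS [7.36 to 11.6]. Per transcript length, Bmp2 stood 83.0 times above Bmp4 in UKS and 4.60 times above it in KS. The ligand counts summed to 2907 in UKS and 773 in KS, 4.25-fold higher [3.93 to 4.61]. Of the 12 other ligand genes listed, 2 were measured. Gdf5, a joint-forming relative of the BMPs, had 98 counts in UKS and 30 in KS, 3.69-fold higher [2.43 to 5.76], with a log2 ratio of 1.28 as counted and 0.88 with the trend removed. Gdf5 shares 40.3% of its exonic bases with Gm15557 on the other strand, which had no counts in either library. How reads of the shared bases were assigned is not stated, so the counts of Gdf5 are uncertain. Gdf6 had 23 and 29 counts in UKS and KS, and its fold of 0.897 [0.495 to 1.61] included equal levels, with a log2 ratio of −0.08 as counted and −0.21 with the trend removed.

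Both receptors among the members were lower as counted, and neither difference remained once the trend was removed. Bmpr2 (ENSMUSG00000067336; chromosome 1, 59763400 to 59879014, plus strand), the type II receptor dedicated to BMPs, had 1006 counts (43.1 CPM) in UKS and 3222 counts (122 CPM) in KS. It was 2.83-fold lower [2.64 to 3.04], with a log2 ratio of −1.48 as counted and −0.12 with the trend removed. Bmpr1a (ENSMUSG00000021796; chromosome 14, 34410734 to 34503341, minus strand), the main type I receptor for BMP2 and BMP4, had 1986 counts (85.1 CPM) in UKS and 3800 counts (144 CPM) in KS. It was 1.69-fold lower [1.60 to 1.79], with a log2 ratio of −0.75 as counted and 0.04 with the trend removed. Bmpr1a shares 4.57% of its exonic bases with Gm17110 on the other strand, which had 1 count in UKS and 4 in KS. The trend is the value expected of a transcript of that length and GC content in these libraries, −1.36 for Bmpr2 and −0.79 for Bmpr1a. The medians by a single property were nearer 0 for Bmpr2, at −0.81 in the most AT-rich group, which holds both receptors, and −0.65 in the group of longest transcripts, so Bmpr2 lay below both of these medians. If a true difference between the lines depended on length or GC content, this step would remove it too.

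Of the further type I and type II receptors, Acvr2a and Bmpr1b were counted as lower, Acvrl1 as higher and Acvr1 as neither. Of all measured genes 10.7% were lower and 5.81% higher. With the trend removed, each of these receptors lay within 2-fold. Acvr2a, a type II receptor shared by activins and BMPs, was 3.65-fold lower [3.02 to 4.43] with 137 counts in UKS and 565 in KS, and Bmpr1b, a type I receptor of cartilage, was 2.37-fold lower [1.88 to 3.01] with 101 and 271. Acvr2a shares 7.84% of its exonic bases with Orc4 on the other strand, which had 535 counts in UKS and 1165 in KS. The counts of Acvr2a are therefore uncertain. The log2 ratios of Acvr2a and Bmpr1b, −1.71 and −1.08 as counted were −0.83 and −0.42 with the trend removed. Acvr1, the type I receptor ALK2, had 1258 counts in each library, 1.13-fold higher in UKS [1.04 to 1.22], at log2 0.17 as counted and 0.19 with the trend removed. Acvrl1, the type I receptor ALK1 of endothelial cells, was 2.72-fold higher [1.90 to 3.96] with 106 counts in UKS and 44 in KS, at log2 1.05 as counted and 0.80 with the trend removed. Acvr2b had 7 counts in UKS and 21 in KS and was not measured. The summed type II receptors were 2.93-fold lower [2.74 to 3.13] and the summed type I receptors 1.38-fold lower [1.32 to 1.44], both as counted. Per length, Acvr1 was the leading type I receptor in UKS with 36.6 TPM, ahead of Bmpr1a with 31.96 TPM. In KS the order was the reverse, with 35.8 TPM for Acvr1 and 59.8 TPM for Bmpr1a. This change of order is one of levels as counted, and it rests on the difference in Bmpr1a that came to 0.04 with the trend removed.

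**Figure D4:**
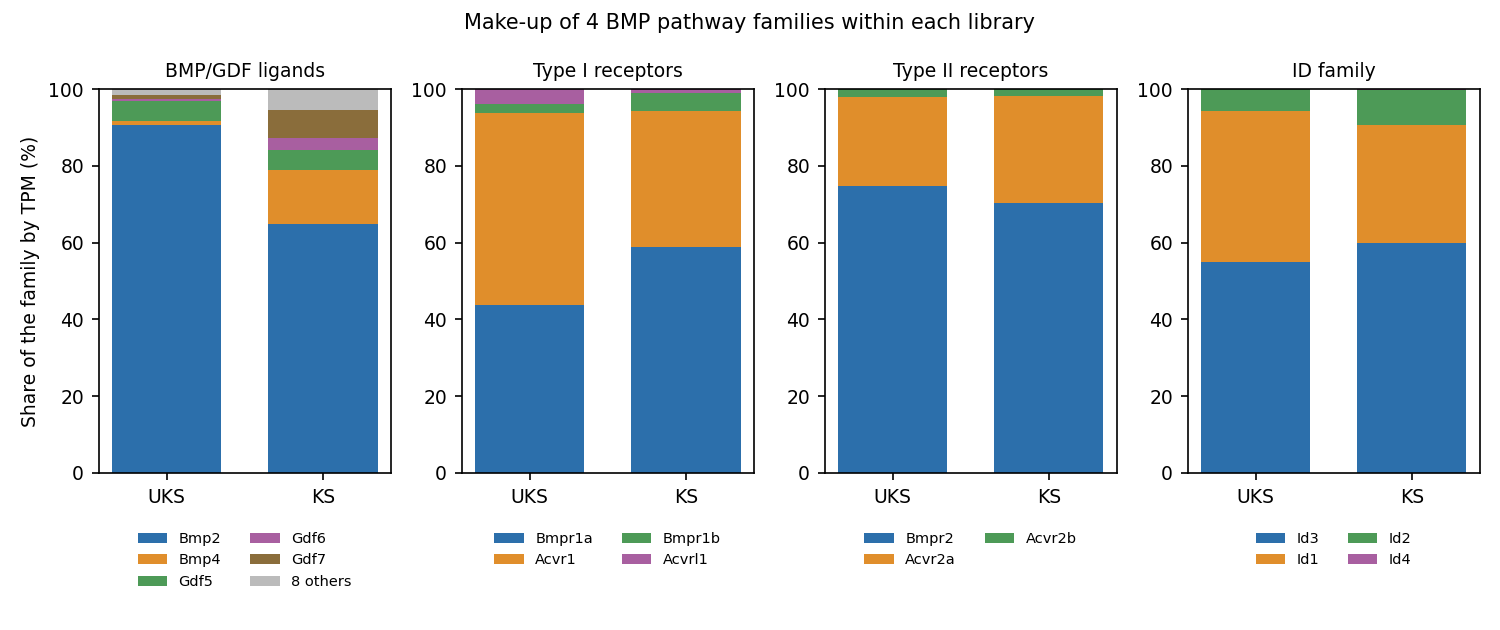
Share of each gene in its family by TPM (%), as counted, within the UKS and KS libraries for 13 ligand genes, 4 type I receptors, 3 type II receptors and 4 ID genes. Bmp2 makes up 90.6% of ligand TPM in UKS and 64.7% in KS, and Acvr1 50.0% of type I receptor TPM in UKS and 35.3% in KS.

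Among co-receptors, Rgma had the lowest ratio, also with the trend removed. Rgma, which encodes a membrane-anchored BMP co-receptor, had 619 counts in UKS and 2706 in KS, 3.87-fold lower [3.54 to 4.23], with a log2 ratio of −1.91 as counted and −2.23 with the trend removed. Its relative Rgmb, the co-receptor with the most counts, had 1734 in UKS and 2845 in KS, with a log2 ratio of −0.53 as counted and −0.21 with the trend removed. Per length Rgmb led Rgma in UKS, with 29.2 against 16.5 TPM, and Rgma led in KS, with 70.7 against 46.8 TPM. The pseudoreceptor Bambi (248 counts in UKS and 403 in KS) and the endothelial co-receptor Eng (655 and 743) lay within 2-fold, at log2 −0.49 and −0.005 as counted and 0.02 and −0.30 with the trend removed.

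Grem1 was the most abundant member in both libraries and lay within 2-fold, both as counted and with the trend removed. Grem1 (ENSMUSG00000074934; chromosome 2, 113746164 to 113758646, minus strand), which binds BMP2 and BMP4 and blocks them, had 31331 counts (1342 CPM) in UKS and 27139 counts (1028 CPM) in KS. It was 1.31-fold higher [1.28 to 1.33], with a log2 ratio of 0.38 as counted and 0.74 with the trend removed. Noggin (Nog, ENSMUSG00000048616; chromosome 11, 89300638 to 89302332, minus strand) had 3 counts in each library, at 0.128 CPM in UKS and 0.114 CPM in KS, which is at the floor of 3 counts, so no fold is given. Per length, Grem1 stood 9.88 times above Bmp2 in UKS and 40.8 times above it in KS. Grem1 itself was within 2-fold, whereas Bmp2 was not.

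Most other antagonists and modulators outside the cell lay within 2-fold. Of 14 listed genes 9 were measured, with 2 counted as higher in UKS, 1 as lower and 6 in neither class. Of all measured genes 5.81% were higher and 10.7% lower. The median log2 ratio of the 9 was 0.19, with 8 ratios above 0 and 1 below. With the trend removed 0 counted as higher and 1 as lower, beside 5.5% and 4.98% of all genes. The DAN family members Nbl1 (2893 counts in UKS and 1399 in KS) and Dand5 (177 and 73) stood at log2 1.21 and 1.19 as counted and at 0.70 and 0.74 with the trend removed. Crim1, a transmembrane protein that binds BMPs in the producing cell, was 3.17-fold lower [2.96 to 3.40] with 1068 counts in UKS and 3831 in KS, at log2 −1.64 as counted and −1.44 with the trend removed. Crim1 shares 2.05% of its exonic bases with Fez2 on the other strand, which had 1171 counts in UKS and 1911 in KS. Fstl1, the most abundant of the 9, had 1005 CPM in UKS and 996 CPM in KS, at log2 0.01 as counted and 0.12 with the trend removed.

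Bmp1 is no BMP ligand despite its name but a metalloprotease that cleaves procollagens and the BMP antagonist chordin. Bmp1 (ENSMUSG00000022098; chromosome 14, 70474558 to 70520234, minus strand) had 6788 counts (291 CPM) in UKS and 5051 counts (191 CPM) in KS. It was 1.52-fold higher [1.46 to 1.58], with a log2 ratio of 0.60 as counted and 0.32 with the trend removed, within 2-fold in both. Its relative Tll1, which also cleaves chordin, had 23 counts in UKS and 246 in KS, 9.46-fold lower [6.16 to 15.2], at log2 −2.38 as counted and −2.11 with the trend removed. The procollagen protease enhancer Pcolce was abundant and close to equal (568 CPM in UKS and 575 CPM in KS), at log2 −0.02 as counted and −0.53 with the trend removed. Its relative Pcolce2 was 2.69-fold higher [1.90 to 3.87] with 112 counts in UKS and 47 in KS, at log2 1.06 as counted and 1.35 with the trend removed.

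Most genes for the intracellular carriers of the signal lay within 2-fold. All 8 SMAD and SMURF genes were measured. In UKS 2 counted as higher and none as lower, beside 5.81% and 10.7% of all measured genes, and the median log2 ratio was 0.13. The signal-carrying Smad1 (967 counts in UKS and 1079 in KS), Smad5 (1898 and 2686) and the common partner Smad4 (1965 and 2395) lay between −0.32 and 0.02 on the log2 scale. With the trend removed Smad1 stood at −0.05, Smad4 at −0.12 and Smad5, which changed sign, at 0.28. Smad9, the least abundant of the BMP SMADs, was 3.22-fold higher [2.60 to 4.01] with 333 counts in UKS and 117 in KS, at log2 1.49 as counted and 1.76 with the trend removed. Smad6, an inhibitory SMAD that is itself induced by BMPs, was 3.61-fold higher [3.108 to 4.195] with 743 counts in UKS and 233 in KS, at log2 1.74 as counted and 1.36 with the trend removed. The second inhibitory SMAD, Smad7, was 1.58-fold higher [1.38 to 1.81], at log2 0.63 as counted and 0.43 with the trend removed. Smurf1, a ubiquitin ligase for SMADs, was the most abundant of the group and stood at log2 0.24 as counted and 0.19 with the trend removed.

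Atoh8 and Dlx2 were higher in UKS among further genes known as BMP targets in some cell types. Of the 8 listed 4 were measured, with 2 counted as higher and none as lower, beside 5.81% and 10.7% of all measured genes. Their median log2 ratio was 1.23, and 1.05 without the trend. Atoh8, a helix-loop-helix factor, was 10.6-fold higher [8.53 to 13.2] with 878 counts in UKS and 94 in KS, at log2 3.08 as counted and 2.63 with the trend removed. The homeobox gene Dlx2 was 3.65-fold higher [3.10 to 4.30] with 629 counts in UKS and 195 in KS, at log2 1.74 as counted and 1.32 with the trend removed. Msx2 stood at log2 0.72 as counted and 0.66 with the trend removed, and Id4 is given above. Hey1, Msx1, Dlx3 and Dlx5 had at most 12 counts in a library.

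Of the 3 genes for E proteins, the partners of ID proteins, none was counted as higher in UKS and Tcf4 as lower. With the trend removed none of the 3 was past 2-fold. Of all measured genes 5.81% were higher and 10.7% lower as counted, and these shares leave little to read from 3 genes. Tcf3 had 5603 counts in UKS and 5573 in KS, at log2 0.18 as counted and −0.20 with the trend removed. Tcf4 had 1989 counts in UKS and 4529 in KS, 2.01-fold lower [1.91 to 2.12], at log2 −1.002 as counted and 0.05 with the trend removed. Tcf12 had 3173 and 6533 counts in UKS and KS, at log2 −0.86 as counted and −0.27 with the trend removed.

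**Figure D5:**
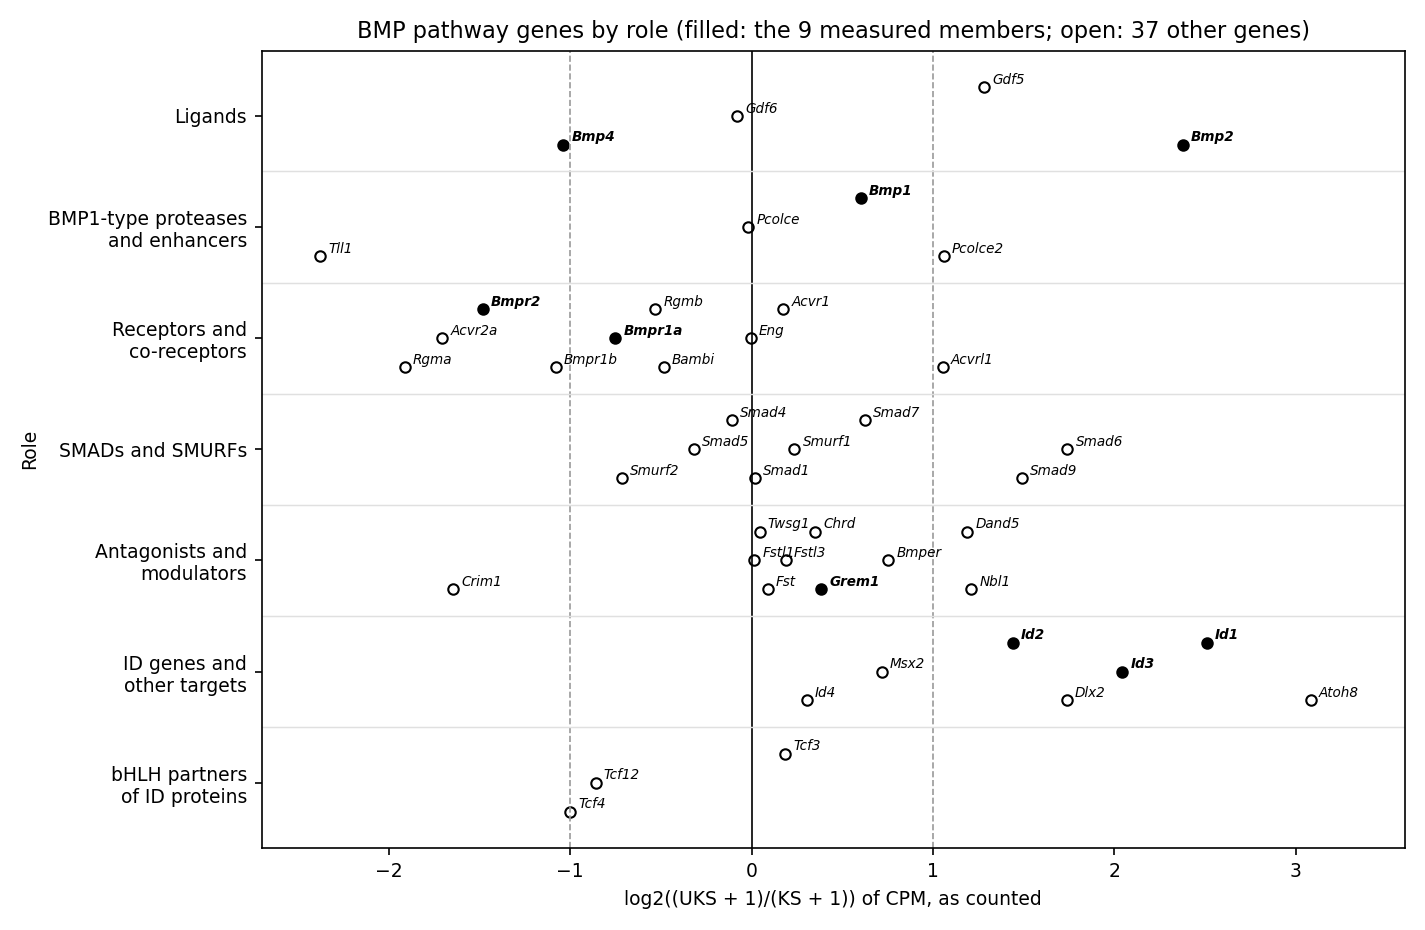
log2((UKS + 1)/(KS + 1)) of CPM, as counted, for the 9 measured members (filled, bold) and 37 other measured BMP pathway genes (open), grouped by role, with dashed lines at 2-fold; vertical position within a role carries no value. The ID genes and other targets lie above 0, Id4 by less than its counting error, while Bmp4, Bmpr2, Bmpr1b, Acvr2a, Rgma, Crim1, Tll1 and Tcf4 lie below −1.

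Of the 59 further pathway genes compared, not all of them named here, 37 were measured. Of these 9 counted as higher and 6 as lower in UKS, beside 5.81% and 10.7% of all measured genes, with a median log2 ratio of 0.09. With the trend removed 5 were higher (Atoh8, Dlx2, Smad6, Smad9 and Pcolce2) and 3 lower (Rgma, Crim1 and Tll1), beside 5.5% and 4.98% of all genes, with a median of 0.12.

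Fibroblast markers were present in both libraries, as the label MEF has it. Of the 10, 7 had a ratio below 0, beside a median log2 ratio of 0.03 over all measured genes. All 10 were measured, summing to 20793 CPM in UKS and 18903 CPM in KS. The largest part of that sum was Fn1 (14581 CPM in UKS and 8995 CPM in KS), and the other 9 summed to 6212 CPM in UKS and 9907 CPM in KS. Thy1 and Pdgfra counted as lower in UKS, at log2 −2.20 and −1.51 as counted, beside 10.7% of all measured genes. With the trend removed 3 counted as lower, beside 4.98% of all genes. They were Thy1 at −2.65, Pdgfra at −1.11 and Vim, at −0.80 as counted, at −1.14. Of 8 osteoblast and cartilage markers 4 were measured, and they summed over all 8 to 87.9 CPM in UKS and 37.4 CPM in KS. Sp7, Col10a1 and Sox9 counted as higher in UKS, beside 5.81% of all measured genes. Their log2 ratios were 2.52, 1.61 and 1.03 as counted and 2.27, 1.52 and 1.11 with the trend removed. Sp7 had 192 counts in UKS and 16 in KS, and Col10a1 had 64 and 6. Col2a1, the other one measured, lay within 2-fold, at 0.97 as counted and 0.81 with the trend removed. Sox9, the highest of these markers, was not low, with 27.7 TPM in UKS and 14.6 TPM in KS. Thy1 had 45.9 TPM in UKS and 239 TPM in KS. Ibsp was at 0 in both libraries, and Bglap, Acan and Alpl were not measured either. Markers of endothelial cells summed to 2.14 and 2.42 CPM in UKS and KS, of epithelium to 1.499 and 3.79, of blood to 4.88 and 5.91, of skeletal muscle to 0.899 and 0.189 and of neural cells to 17.3 and 24.5. From these lists the epithelial Krt18 (18 counts in UKS and 78 in KS) and the neural Elavl4 (3 and 105) counted as lower in UKS. Their log2 ratios were −1.16 and −2.14 as counted and −1.65 and −1.33 with the trend removed. Sp7, Col10a1 and Sox9 were higher in UKS, as were Bmp2 and the ID genes. The part of these markers in the result was not tested.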

How the data were processed

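RNA was measured in 2 MEF libraries, UKS and KS. Libraries were made from TRIzol-extracted total RNA with a TruSeq RNA kit, per the labels' protocols. The submitters' processing notes list HISAT2, StringTie and GRCm38.p5 but not their role. No source used here gives the counting program, annotation or use of strand, so reads of overlapping genes cannot be told apart. The values deposited by the authors are expected counts, estimated for each gene and unscaled, of which 21.5% of those above 0 in UKS and 23.1% in KS were not whole, and these were rounded.

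TMM factors (1.01 for UKS and 0.994 for KS) came from edgeR 4.0.16 in R 4.3.3. Intervals at 95% came from scipy 1.17.1, Clopper-Pearson for ratios (conditional on the summed count) and shares and exact Poisson for single counts. No test was made, since each group has 1 library. GENCODE M21 (GRCm38), which held 51719 of the 51912 identifiers, gave coordinates and, from the longest coding transcript, length and GC content. The trend was estimated in statsmodels 0.14.6 by robust regression with Tukey's biweight on cubic polynomials of log2 length and GC content, fitted without the members and pathway genes. TPM divide counts by that length. The steps were tested on simulated data.

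The members, lists and rules were chosen with earlier results of these data known. The rule named all members, further pathway genes past 2-fold, the most abundant gene of each role, Id4, the type I and II receptors and the SMADs. Outside the rule, Gdf6, Bambi, Eng, Msx2, Tcf12, Hey1, Msx1, Dlx3 and Dlx5 were also named, and other genes of the lists were not. Both lines share another engineered change, and it and 1 gene that the rule also takes in are not reported here.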

Additional observations from a re-analysis of the deposited data

How the results depend on the processing

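Each member was recomputed under DESeq2 1.42.0 size factors, total counts alone, pseudocounts of 0.1 and 5 CPM, unrounded counts and removal of the trend with length and GC content. Id1, Id2, Id3 and Bmp2 were at least 2-fold higher in UKS under all 6, with log2 ratios of 2.03 to 2.54, 1.26 to 1.53, 1.55 to 2.06 and 2.19 to 2.42. Bmpr2 was within 2-fold only with the trend removed (−0.12) and Bmp4 only with a pseudocount of 5 CPM (−0.41). The lower members numbered 1 in place of 2 in both cases, and also at a minimum mean of 5 CPM, which drops Bmp4. Bmpr1a was the only member with a change of sign, to 0.04 with the trend removed. The median over measured members was 0.74 with the trend removed, 0.49 with no filter, which takes in Nog, and 1.02 at a minimum of 5 CPM. Over all genes, 412 were higher and 836 lower with a pseudocount of 5 CPM, in place of 756 and 1396, and 715 and 647 with the trend removed. No paired analysis was possible because each group has 1 library, and for the same reason no replicate could be left out. Depth limits Bmp4, Nog, Id4 and most further ligands.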

Other observations

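Of the 20 measured genes nearest to the members, 1 on each side of each, UKS was past 2-fold higher in 2 and past 2-fold lower in 1, beside 5.81% and 10.7% of all measured genes, and the median log2 ratio was 0.13. Without the trend these counts were 3 and 1, beside 5.5% and 4.98% of all genes, with a median of 0.006. The neighbours of Id1, H13 at 27.6 kb and Bcl2l1 at 43.3 kb, had log2 ratios of 0.49 and 0.12 as counted and 0.41 and −0.23 with the trend removed, and those of Id3, Rpl11 at 90.1 kb and E2f2 at 26.6 kb, had 0.59 and 0.19 as counted and 0.15 and 0.05 with it removed. The higher ones were Lgi3 (log2 1.53 as counted and 1.21 with the trend removed, with 169 counts in UKS and 49 in KS), 10.5 kb from Bmp1, and Rnf144a (1.70 and 1.93, with 981 and 323), 1204 kb from Id2. The lower one was Fmn1 (−2.01 as counted and −1.01 with the trend removed, with 387 counts in UKS and 1840 in KS), 29.4 kb from Grem1. Hao1, 934 kb from Bmp2, was past 2-fold only with the trend removed (0.85 as counted and 1.03). These neighbours were chosen by position alone, after the members' values were known.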
